A study of Mus musculus with 15 samples.

Results

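C2C12 mouse muscle precursor cells made to express wild-type MLX were compared with C2C12 cells that carried a non-targeting short hairpin RNA. The groups are written MLX WT and NT shRNA below. Each had 3 libraries, chosen by their labels alone, so 6 of the 15 libraries of the series enter the comparison. The other groups, also of 3 libraries each, carried a vector with green fluorescent protein only (MCS), a dominant-negative MLX (MLX DN) or an shRNA against Mlx (MLX SHRNA). C2C12 cells are myoblasts that fuse into contractile myotubes when they differentiate. All cells of the series had received a lentiviral construct, and the labels name no drug, time point or difference in medium. MLX WT and NT shRNA cells differ in what the construct carries: one adds a protein and the other adds a hairpin. The vectors differ as well: NT shRNA is the control of the hairpin vector, and the labels do not say whether MLX WT and MCS share a backbone. Differences made by MLX, by the hairpin or by the vector therefore cannot be told apart in this comparison. The MCS value is given beside many of the named results. Where it is absent, the difference stated is from NT shRNA only. Nothing in the labels ties a group's 3 libraries to separate cultures, or tells whether transduced cells were selected, pooled or cloned. The p-values are measured against the spread among the libraries at hand, which may be technical.

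MLX is a transcription factor of the helix-loop-helix leucine zipper class. It binds DNA as a dimer with MondoA (gene Mlxip), ChREBP (gene Mlxipl) or proteins of the MAD family. With MondoA or ChREBP it activates genes in cells that take up glucose, through E-box motifs of the letters CACGTG that often lie in pairs. MondoA is the more abundant of these partners in skeletal muscle, and Txnip and Arrdc4, arrestin-like proteins that limit glucose uptake, are its best known targets. Muscle cells also secrete growth factors and cytokines, collectively called myokines.

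The labels were first checked on Mlx itself. Mlx was at 655, 632 and 645 FPKM in the MLX WT libraries and at 16.3, 17.1 and 17.9 FPKM in the NT shRNA libraries. FPKM is a fragment count scaled to transcript length and to library depth. Every MLX WT library lay far above every NT shRNA library, by 37.7-fold in mean FPKM. On the log2(FPKM + 2) scale, which was used for all differences and tests, Mlx was higher by 5.08 (SE 0.0596, limma adjusted p = 4.19e-18). MCS had 17.1 FPKM, close to NT shRNA, and the log2 difference of MLX WT from MCS was also 5.08. Reads from the construct and from the cell's own gene are summed in this value. Psmc3ip, a gene on the opposite strand that shares 19.4% of the exon bases of Mlx, was at 6.55 ± 0.669 against 7.22 ± 0.252 FPKM and did not pass the test (adjusted p = 0.13). Errors given with ± are SD (n = 3 libraries).

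The label myoblast was checked on muscle genes. Myog, a transcription factor switched on as myoblasts differentiate, was at 601 ± 13.1 FPKM with MLX WT and 657 ± 9.18 with NT shRNA. Acta1, the actin of mature skeletal muscle, was at 3039 ± 34.7 and 2306 ± 49.4 FPKM. Pax7, a marker of muscle stem cells, was at only 2.46 ± 0.0221 and 2.83 ± 0.173 FPKM. Both groups thus carried transcripts of differentiating muscle at high levels beside the undifferentiated state that the label names.

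Across the transcriptome, 11945 of the 23352 genes of the table were tested, those that reached 1 FPKM in 3 or more of the 15 libraries. At an adjusted p under 0.05, 8355 genes (69.9%) were called. MLX WT was higher for 3067 of them (25.7%) and lower for 5288 (44.3%). The counts of gene lists below are to be read beside these shares. The level for testing was reached only through MLX WT by 107 genes, of which 93 were higher, and only through NT shRNA by 53. Of the 11838 genes other than those 107, 2974 were higher. The differences were mostly small: 165 genes (1.38%) were called and at least 2-fold apart, 118 higher (0.988%) and 47 lower (0.393%). The split between higher and lower depends on the scaling. Of the called genes 36.7% were higher as deposited, against 53.7% after centring every library on its median, 44.8% after quantile normalization and 45.6% after removal of trends over transcript length and GC content. The median over all tested genes was -0.06 and moved by less than 0.1 under each of these. The values of the 3 MLX WT and the 3 NT shRNA libraries did not overlap for 8815 genes (73.8%). A call by itself is therefore the common state here, and the size of a difference and the level in MCS carry more of the description. MLX WT against MCS gave 8400 called genes (70.3%), 3300 higher (27.6%) and 5100 lower (42.7%), with 200 (1.67%) at least 2-fold apart. List counts against MCS are to be read beside these MCS shares. NT shRNA against MCS, which tests the difference between the comparisons of MLX WT with either control, gave 8854 (74.1%), 4421 higher (37%) and 4433 lower (37.1%), with 300 (2.51%) at least 2-fold apart. By these counts the controls differed from each other at least as much as MLX WT did from either.

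**Figure D1:**
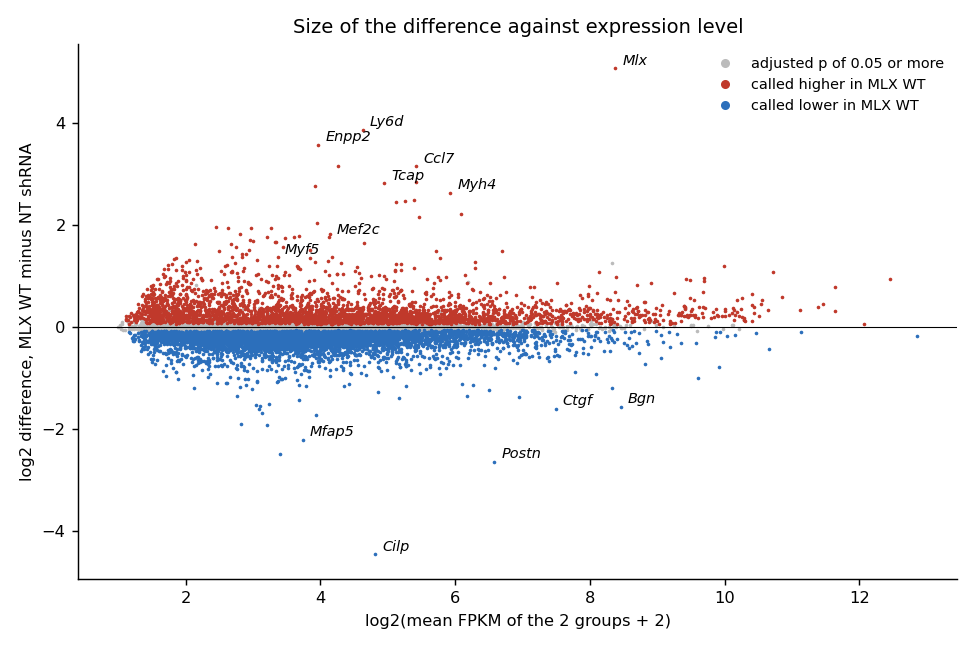
Each point is 1 of the 11945 tested genes, with the mean level of the MLX WT and NT shRNA libraries on the x axis, as log2(FPKM + 2), and the log2 difference, MLX WT minus NT shRNA, on the y axis. Red points passed the test as higher, blue points as lower and grey points did not pass. Mlx stands at 5.08 and Cilp at -4.46, while most points lie close to 0.

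Depth was read from the steps between low FPKM values and came to 53.0 to 77.8 M fragments in the MLX WT libraries and 39.6 to 56.3 M in the NT shRNA libraries. NT shRNA replicate 1 was the shallowest of the 6. On this estimate 3 fragments on a transcript of 2000 bases equal 0.0193 to 0.0379 FPKM, a floor that covers counting error only. Libraries of 1 group correlated at r = 0.999 across genes, and libraries of the different groups at 0.981 to 0.982.

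The proteins that dimerize in the MLX network were then examined. Of the 11 tested genes of 13 in this list, 3 were called higher and 5 lower, and 1 of them, Mlx, by at least 2-fold. These shares, 27.3% and 45.5%, were near the 25.7% and 44.3% of all tested genes. The list had a median difference of -0.07, close to that of all genes, and after median centring or quantile normalization 4 were higher and 3 lower. Mlxip, which encodes MondoA, was at 3.64, 3.32 and 3.70 FPKM with MLX WT and 5.03, 4.51 and 4.74 with NT shRNA. It fell by 0.28 on the log2 scale, with every MLX WT library below every NT shRNA library (SE 0.0539, limma adjusted p = 2.37e-04), while its difference from MCS was -0.13. Mlxipl, which encodes ChREBP, did not reach the level for testing, with at most 0.0206 FPKM in any of these 6 libraries. Max, the shared partner of the MYC and MAD proteins, was at 17.5 ± 0.141 against 19.03 ± 0.233 FPKM, a log2 difference of -0.11 that did not pass after median centring or quantile normalization. Among the MAD-type repressors, Mxd4 fell by 0.30 (19.6 ± 0.216 against 24.7 ± 0.732 FPKM), whereas Mxd1, Mxd3 and Mxi1 did not pass. Of the members called higher beside Mlx, Mnt rose by 0.08 and Myc by 0.12. Their differences from MCS were -0.09 and 0.05. Mycl1, a MYC family member, was at 12.7 ± 0.297 FPKM against 15.7 ± 0.189 and fell by 0.27. MCS lay lower still for it, at 5.17 FPKM, so Mycl1 was lower than NT shRNA and higher than MCS. Mlxip and Mxd4 lie on chromosome 5, where the median difference of all tested genes was -0.25; what share of their falls is that of the chromosome was not tested.

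Genes known to respond to glucose through the partners of MLX were called higher more often than lower: of 18 tested members of 21, 10 were called higher and 2 lower, with a median of 0.10. These shares were 55.6% and 11.1%, against 25.7% and 44.3% of all tested genes. Against MCS the count was 11 higher and 7 lower, where 27.6% of all tested genes were higher and 42.7% lower. Of the best known targets, only Txnip reached the level for testing. Txnip was at 37.4, 36.96 and 39.4 FPKM with MLX WT and 38.6, 40.2 and 39.1 with NT shRNA. Its ranges overlapped and it did not pass the test (log2 difference -0.049, SE 0.0386, limma adjusted p = 0.27). MCS was lower than both, at 30.2 ± 0.966 FPKM, and MLX WT was called higher than MCS by 0.31. Of the exon bases of Txnip, 21.4% are shared with Gm15441 on the opposite strand. Arrdc4 was at 0.738, 0.910 and 0.882 FPKM with MLX WT, 0.200, 0.0929 and 0.0866 with NT shRNA and 0.405, 0.354 and 0.338 with MCS. The MLX WT libraries were the highest of the 9, but the gene stayed under the level for testing. G6pdx, the enzyme that opens the pentose phosphate pathway, was at 39.6, 39.2 and 41.02 FPKM with MLX WT against 22.9, 24.6 and 22.3 with NT shRNA. All MLX WT values lay above all NT shRNA values and above MCS (32.7 ± 0.355), and the gene rose by 0.73 (SE 0.0298, limma adjusted p = 8.67e-12). Pfkfb3, which makes the activator of phosphofructokinase, was at 4.60, 4.38 and 4.59 FPKM against 2.07, 2.19 and 2.20. It rose by 0.65 and was 0.52 above MCS. Tkt (0.48), Gpd1 (0.55), Me1 (0.46), Scd1 (0.36) and Scd2 (0.25) also rose. Gpd1 was nevertheless below MCS (-0.27). Klf10, a repressor induced by glucose in other tissues, went the other way, with 20.2 ± 0.646 FPKM against 33.9 ± 0.949 and a log2 difference of -0.69. Fgf21, a fasting hormone also secreted by stressed muscle, was at 46.9 ± 0.502 and 44.4 ± 1.40 FPKM and did not pass, although both groups were far above MCS at 5.97 ± 0.563. Fasn, Acaca and Acly, the enzymes at the entry to fatty acid synthesis, did not pass the test either, although Fasn was called at 0.10 after median centring and 0.19 with length and GC trends removed. Of the 17 tested fatty acid synthesis genes 7 were called higher and 1 lower, and 11 were higher after median centring.

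Promoters were inspected for the E-box, taken as 250 bases before to 50 bases after the start in RefSeq (build GRCm38.p6). CACGTG, which reads the same on both strands, was present in 7.15% of the 32851 promoters of the table and in 10.1% of the 11687 promoters that belong to tested genes. It was in 9.80% of 102 promoters of genes at least 2-fold higher, in 10.4% of 48 promoters of genes at least 2-fold lower and in 12.5% of 16 promoters of the glucose-responsive list. These shares lie near that of all tested genes. The promoters matched 80 of the 118 higher, 35 of the 47 lower and 14 of the 18 glucose-responsive genes. Enpp2, Ly6d, Lpl, Ccl2 and Ccl7 had no promoter to search. CACGTG followed by any 5 bases and a second CACGTG, the spacing of the carbohydrate response element, was in none of the promoters of the table. Only exact copies of both E-boxes were searched, so elements with an inexact copy would have been missed. With no match in any promoter, this search cannot tell the sets of genes apart or show that the element is absent. Pfkfb3 is the glucose-responsive member with the largest difference among those with an E-box. Of its 2 promoters, the 1 with the E-box is shown, chr2:11502041-11502340 on the minus strand, with the E-box in capitals.
Pfkfb3: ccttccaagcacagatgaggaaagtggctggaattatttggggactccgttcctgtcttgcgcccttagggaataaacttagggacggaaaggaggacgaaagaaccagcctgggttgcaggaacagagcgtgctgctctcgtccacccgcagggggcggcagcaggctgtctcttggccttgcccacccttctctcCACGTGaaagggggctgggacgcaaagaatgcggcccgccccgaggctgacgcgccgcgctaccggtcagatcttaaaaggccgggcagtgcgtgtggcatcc

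Interferon response genes were mostly higher with MLX WT. They encode antiviral effectors and sensors that transcription factors of the interferon pathway switch on through the interferon-stimulated response element, at the core of which GAAA stands in tandem. Of 22 tested members of the 34 listed, 20 were called higher and 1 lower, with a median of 0.46. The level for testing was reached only through MLX WT by 6 of them, Ifih1, Ifit3 and Gbp3 included. The filter favoured a rise in these 6. Of the other 16, 14 were higher. Against MCS 16 were higher and 5 lower, with a median of 0.27. Most members are weakly expressed: with a mean FPKM of at least 5 required only 4 were tested, all higher, and with no filter 32 of 34 were higher and 1 lower. Bst2, which encodes tetherin, a membrane protein that holds budding viruses at the cell surface, was at 59.6, 55.6 and 55.7 FPKM with MLX WT. NT shRNA had 8.68, 9.07 and 8.66 and MCS 8.55, 9.51 and 9.06. The controls were alike and every MLX WT library lay above them, 6.47-fold over NT shRNA in mean FPKM and a log2 difference of 2.45 (SE 0.0436, limma adjusted p = 5.13e-16). Isg15, a ubiquitin-like protein that is attached to others after interferon, was at 8.01, 6.94 and 7.17 FPKM against 2.07, 1.65 and 2.09 and rose by 1.251. Ifih1, the cytosolic RNA sensor MDA5, was at 3.51, 3.31 and 3.25 against 0.361, 0.317 and 0.351 FPKM and rose by 1.19. Ifit3, an antiviral protein that acts on foreign RNA, was at 1.91 ± 0.278 against 0.379 ± 0.0628 FPKM and rose by 0.72. These genes were also above MCS, by 1.002, 0.95 and 0.76. The guanylate-binding protein genes Gbp2 and Gbp3 rose by 0.97 and 0.59; they belong to a family of similar copies, and their values are uncertain to that extent. Irf1, a transcription factor of this response, was at 12.2 ± 0.522 against 9.56 ± 0.383 FPKM. MCS was higher than both groups for Irf1 (14.1) and Irgm1 (18.1), so these were above NT shRNA and below MCS. Ifit2 was the member that fell (-0.24), and it was below MCS too.

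Antigen presentation, the display of peptides on class I molecules, shares many of its inducers with this response. Of 16 tested members, 13 were called higher and 2 lower, with a median of 0.51, and the counts against MCS were the same with a median of 0.25. Of these members 3, Psmb8 and Psmb9 among them, reached the level for testing only through MLX WT. The filter favoured a rise in these 3. Of the other 13, 10 were higher. The immunoproteasome subunits Psmb8 and Psmb9 cut peptides for display. Psmb8 was at 4.39, 3.99 and 3.39 FPKM with MLX WT and 0.412, 0.385 and 0.349 with NT shRNA, and Psmb9 at 1.55, 1.32 and 1.56 against 0.125, 0.0900 and 0.0662. The log2 differences were 1.31 and 0.73. Psmb9 shares 15.7% of its exon bases with Tap1 on the opposite strand. Tap2, a subunit of the peptide transporter, rose by 1.03 (12.8 ± 0.465 against 5.24 ± 0.389 FPKM). The class I heavy chains H2-K1 and H2-D1, which are near copies of each other, rose by 0.72 and 0.55. B2m, their light chain, was at 198 ± 2.53 and 183 ± 6.36 FPKM, a difference of 0.11 that was gone after removal of length and GC trends. The ER chaperone Pdia3 fell by 0.47.

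GAAA followed by any 2 bases and a second GAAA, searched on both strands with overlapping matches allowed, was present in 12 of the 23 promoters (52.2%) that matched 19 of the 22 interferon response genes. It was in 3.44% of the promoters of the table and in 2.75% of those of tested genes. Among genes at least 2-fold higher it was in 10.8% of 102 promoters, and among genes at least 2-fold lower in 4.17% of 48. These matches are a description of the listed genes and not evidence of binding. Promoters of 4 members that differed between the groups are shown, in build GRCm38.p6, with the matches in capitals. Bst2 is at chr8:71537423-71537722 (minus strand), Isg15 at chr4:156200769-156201068 (minus), Ifih1 at chr2:62646206-62646505 (minus) and Gbp2 at chr3:142620413-142620712 (plus). Overlapping matches run together in Bst2 and Isg15, and in Gbp2 the match lies on the other strand.
Bst2: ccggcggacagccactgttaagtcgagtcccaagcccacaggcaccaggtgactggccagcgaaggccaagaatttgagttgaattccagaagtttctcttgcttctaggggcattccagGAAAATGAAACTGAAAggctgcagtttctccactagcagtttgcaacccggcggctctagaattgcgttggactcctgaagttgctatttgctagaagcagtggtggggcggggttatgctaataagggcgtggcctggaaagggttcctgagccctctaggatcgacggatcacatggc
Isg15: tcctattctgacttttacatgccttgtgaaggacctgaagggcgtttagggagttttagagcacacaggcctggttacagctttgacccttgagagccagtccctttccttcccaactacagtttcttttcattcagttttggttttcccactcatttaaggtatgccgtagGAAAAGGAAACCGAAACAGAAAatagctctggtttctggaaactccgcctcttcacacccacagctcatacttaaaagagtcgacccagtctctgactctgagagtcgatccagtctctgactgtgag
Ifih1: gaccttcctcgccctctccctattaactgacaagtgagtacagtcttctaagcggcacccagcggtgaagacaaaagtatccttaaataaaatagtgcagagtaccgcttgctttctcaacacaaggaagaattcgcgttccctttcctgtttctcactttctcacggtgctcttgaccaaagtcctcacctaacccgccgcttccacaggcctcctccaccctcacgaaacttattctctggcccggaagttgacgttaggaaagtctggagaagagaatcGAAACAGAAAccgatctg
Gbp2: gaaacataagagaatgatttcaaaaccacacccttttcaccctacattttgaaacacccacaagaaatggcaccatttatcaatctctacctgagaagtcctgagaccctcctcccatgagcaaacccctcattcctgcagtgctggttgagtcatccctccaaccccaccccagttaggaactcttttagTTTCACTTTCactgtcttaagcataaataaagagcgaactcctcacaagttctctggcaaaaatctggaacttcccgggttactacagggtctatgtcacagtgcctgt

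The largest single differences were then listed. The 15 largest rises were Mlx, Ly6d, Enpp2, Ccl2, Ccl7, Pvalb, Tcap, Il1rn, Myh4, Tmem86a, Bglap2, Bst2, Myh8, Lpl and Tceal7, between 5.08 and 2.04 on the log2 scale. Enpp2 encodes autotaxin, a secreted enzyme that makes lysophosphatidic acid, and was at 26.99, 26.6 and 27.2 FPKM with MLX WT. NT shRNA had 0.342, 0.531 and 0.406 FPKM and MCS 1.27, 1.29 and 1.10. Enpp2 was thus low in both controls, and it rose by 3.58 against NT shRNA (SE 0.0343, limma adjusted p = 3.55e-19) and was 3.17 above MCS. Ly6d, a lipid-anchored surface protein, was at 44.7, 44.3 and 43.9 FPKM against 1.31, 0.866 and 1.29 with NT shRNA and 3.72, 3.40 and 3.75 with MCS. It rose by 3.88 (SE 0.0496), or 38.3-fold in mean FPKM.

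The neighbouring chemokine genes Ccl2 and Ccl7, whose products attract monocytes, rose together. Ccl2 was at 33.3, 32.4 and 32.3 FPKM with MLX WT, 2.0001, 1.75 and 1.88 with NT shRNA and 6.83, 6.29 and 7.58 with MCS. Ccl7 was at 75.04, 78.2 and 72.01, 7.06, 6.01 and 6.95 and 16.1, 16.9 and 14.8 FPKM in the same order. For both, NT shRNA was the lowest group and MCS lay between, so the difference was larger against NT shRNA (3.16 and 3.15) than against MCS (1.96 and 2.10). Il1rn, a secreted antagonist of interleukin-1, had the same order with 24.5 ± 0.222, 1.89 ± 0.158 and 6.04 ± 0.283 FPKM. Lpl, the lipase that releases fatty acids from circulating lipoproteins, was at 68.7, 69.4 and 71.9 FPKM against 13.9, 13.95 and 14.1. It rose by 2.17 and was 1.80 above MCS. Tmem86a, a lysoplasmalogenase of lipid membranes, rose by 2.49 (69.5 ± 1.06 against 10.7 ± 0.0755 FPKM). Bglap2, a copy of the osteocalcin gene, was at 63.1, 64.3 and 61.6 FPKM against 9.09, 8.97 and 10.9 and was lowest in MCS (4.60 ± 0.106). Its near copies Bglap and Bglap3 rose by 1.12 and 0.76, and how reads were shared among the copies was not given in the sources used here. Other bone genes did not follow: of 8 tested bone lineage genes, 3 were called higher, the osteocalcin copies, and 3 lower, and Runx2 and Spp1 did not pass. Spp1 was called lower after quantile normalization (-0.24) and with length and GC trends removed (-0.10).

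The 15 largest falls were Cilp, Postn, Mfap5, Cmklr1, Fbln5, Ltbp2, Rnf150, Gzme, Ctgf, Bgn, Fxyd6, Cp, Cd34, Sod3 and Ptgs2. Cilp, a matrix protein first described in cartilage, was at 0.417, 0.457 and 0.453 FPKM with MLX WT and 51.2, 52.8 and 51.4 with NT shRNA. MCS had 5.88, 6.15 and 6.22 FPKM. NT shRNA stood highest and MLX WT lowest, a fall of 4.46 against NT shRNA (SE 0.0297, limma adjusted p = 4.67e-21) and a difference of -1.73 from MCS. Postn, which encodes periostin of injured and growing connective tissue, was at 24.8, 23.6 and 24.999 FPKM against 161, 163 and 164 and 48.9, 48.6 and 50.02. It fell by 2.64, with MCS again between the groups. Mfap5, a protein of elastic microfibrils, was at 2.55, 2.84 and 2.82 FPKM against 20.4, 19.6 and 19.8 with NT shRNA and 2.89, 2.76 and 2.61 with MCS. Here MLX WT and MCS were alike and NT shRNA stood apart: the log2 difference was -2.21 from NT shRNA and -0.00 from MCS. Bgn, the proteoglycan biglycan, showed the other pattern, with 174, 173 and 179 FPKM in MLX WT below both NT shRNA (517, 537 and 517) and MCS (591, 595 and 596). In 5 of these falls MCS was below MLX WT: for Gzme, Fxyd6, Cp, Cd34 and Sod3 the differences from MCS were 0.78, 0.20, 0.36, 0.26 and 0.64. Sod3, the secreted superoxide dismutase, was for example at 4.99 ± 0.205 FPKM with MLX WT, 16.8 ± 0.829 with NT shRNA and 2.49 ± 0.0621 with MCS. Ctgf, a matricellular target of TGF-beta and YAP, fell by 1.60 (87.1 ± 1.22 against 269 ± 5.12 FPKM, MCS 130.4 ± 0.790). Ptgs2, the inducible cyclooxygenase, fell by 1.39. Rnf150 lies in a segment of chromosome 8 in which most genes were lower, described with the chromosomes. Ltbp2 shares 11.3% of its exon bases with a gene on the opposite strand.

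**Figure D2:**
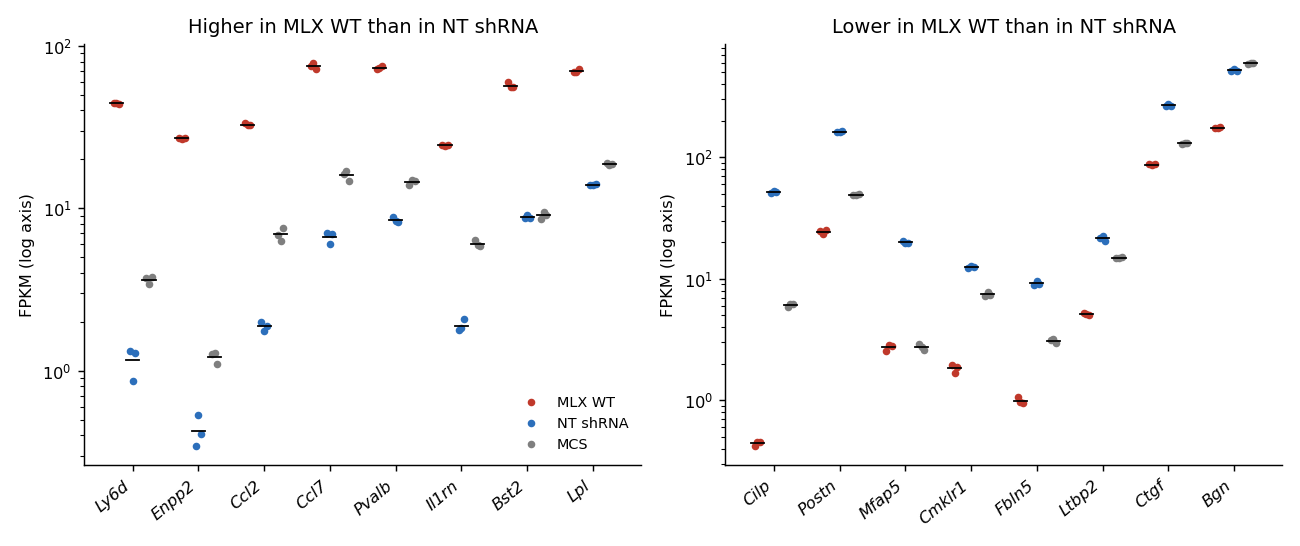
FPKM on a log axis in each library for 8 genes higher (left) and 8 genes lower (right) in MLX WT than in NT shRNA. Points are libraries, coloured by group with MCS in grey, and lines are group means. Enpp2, Bst2 and Lpl are low in both controls, whereas Cilp, Postn and Ctgf have MCS between the groups and Mfap5 has MCS at the level of MLX WT.

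To separate these patterns, genes called in the same direction against both controls were ranked by the smaller of the 2 differences. The leading 10 above both were Mlx, Enpp2, Ly6d, Bglap2, Bst2, Pvalb, Ccl7, Ccl2, Hba-a2 and Lpl. Hba-a2, an alpha-globin gene with a near-identical copy, was at 8.97, 11.9 and 10.4 FPKM against 1.23, 1.24 and 1.21, with the widest SE of all genes in these rankings (0.167). The leading 10 below both were Cilp, Bgn, Cmklr1, Ltbp2, Capn6, Ctrb1, Plscr2, Klhdc8a, Postn and Pla2g4a. Capn6, a calpain without protease activity, was at 2.40, 2.26 and 2.22 FPKM against 7.82, 7.67 and 7.52 with NT shRNA and 16.3, 15.7 and 16.7 with MCS. Ctrb1, chymotrypsinogen B, was at 10.6 ± 0.126 against 26.1 ± 0.960 and 53.4 ± 2.39 FPKM. Pla2g4a, the phospholipase that releases arachidonic acid, fell by 1.05 and was -0.92 against MCS. For each of these, MLX WT was the lowest of the 3 groups in every library. Mlx hairpin cells had lower mean FPKM still for Cilp (0.281, MLX WT 0.443), Bgn (144, 175), Capn6 (1.67, 2.30) and Ctrb1 (8.05, 10.6). In the others below both controls, the hairpin mean lay above MLX WT. The dominant-negative mean did so in all 10. Among the 10 above both, Bglap2 averaged 63.0 FPKM in MLX WT, 64.1 in hairpin cells and 57.5 in dominant-negative cells. The remaining members had their highest mean in MLX WT.

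Genes called in opposite directions against the controls were ranked in the same way, and MLX WT lay between the controls for them. Dhrs7c, a dehydrogenase of the sarcoplasmic reticulum, was at 10.8, 9.14 and 9.63 FPKM with MLX WT, 1.59, 1.52 and 1.68 with NT shRNA and 30.9, 32.8 and 31.9 with MCS. Mybpc1, the slow myosin-binding protein C, was at 6.27 ± 0.206, 0.943 ± 0.0921 and 28.7 ± 0.175 FPKM, and Actn2, the alpha-actinin of Z-discs, at 30.04 ± 0.282, 13.3 ± 0.526 and 59.6 ± 1.35. Tspan7 and Hpgd completed the 5 that were above NT shRNA and below MCS. Hpgd, which inactivates prostaglandins, was at 0.0766 ± 0.00534 FPKM in NT shRNA. Calr, Mir24-2, Gzme and Dhps were among the 5 below NT shRNA and above MCS. Calr, Mir24-2 and Dhps lie in the segment of chromosome 8 described at the end, and 77.6% of the exon bases of Mir24-2 are shared with Mir3074-2 on the opposite strand.

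Genes of the contractile apparatus were mostly higher with MLX WT than with NT shRNA. Sarcomeres are built from myosin thick filaments, actin thin filaments with troponin and tropomyosin, and Z-disc proteins, and calcium release and uptake control them. Of 57 tested members of 59, 49 were called higher and 4 lower, with a median of 0.57, and 13 were at least 2-fold higher. Against MCS the same list had 29 higher and 21 lower with a median of 0.11, and NT shRNA minus MCS had a median of -0.39. The NT shRNA level was thus low for many of these genes. In bulk RNA, fewer differentiated cells and less RNA per cell cannot be told apart.

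The fast myosin heavy chain Myh4 was at 103, 101 and 104 FPKM with MLX WT, 13.9, 15.4 and 15.1 with NT shRNA and 159, 155 and 161 with MCS. It rose by 2.64 (SE 0.0308, limma adjusted p = 4.19e-18), while MCS was higher still. Myh8, the perinatal heavy chain, was at 111, 109 and 109.8 FPKM against 21.2, 22.99 and 21.99, a rise of 2.22, and here MCS (82.02 ± 0.769) was below MLX WT. The adult fast chains Myh1 and Myh2 rose by 1.08 and 0.96 and were above MCS by 0.75 and 0.79. Myh3, the embryonic chain and the most abundant, was at 935 ± 8.15 FPKM against 492 ± 14.1, and MCS was at 941 ± 13.2, so that only NT shRNA stood apart. Myh7, the slow chain, was at 44.9 ± 0.310, 19.7 ± 0.548 and 65.5 ± 0.872 FPKM in MLX WT, NT shRNA and MCS. The myosin genes are similar to each other, which makes their separate values less certain.

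Tcap, which encodes telethonin of the Z-disc, was at 53.6, 53.02 and 49.7 FPKM against 6.005, 5.83 and 5.14. It rose by 2.82, yet MCS was higher at 84.02, 90.3 and 85.2 FPKM. Pvalb, the calcium buffer parvalbumin of fast fibres, was at 72.1, 72.6 and 75.2 FPKM against 8.84, 8.37 and 8.24 and 13.8, 14.8 and 14.7. It was the highest in MLX WT of all 5 groups, rising by 2.85 against NT shRNA and lying 2.19 above MCS. Myl2, the slow and cardiac regulatory light chain, was at 74.1, 78.3 and 74.1 FPKM against 26.1, 27.1 and 23.8, and MCS had only 2.90, 2.91 and 3.03. Mybpc2, the fast myosin-binding protein C, was at 19.4 ± 0.624 against 5.49 ± 0.0565 FPKM and rose by 1.51, with MCS (5.30 ± 0.00493) at the level of NT shRNA. Among the most abundant transcripts, Myl1 rose by 1.09 and Actc1 by 0.95 against NT shRNA. The difference from MCS was 0.29 for Myl1 but -0.68 for Actc1 (904 ± 9.31 FPKM, MCS 1449 ± 7.85). Acta1 rose by 0.40 as deposited and by 0.005 after quantile normalization, where it did not pass. Tnnc2, fast troponin C, rose by 1.21 against NT shRNA and was below MCS, with a difference of -0.26. However, 84.6% of its exon bases overlap Ube2c on the opposite strand. Not all contractile genes were higher. Des did not pass (1126 ± 14.5 against 1099.8 ± 33.5 FPKM), Ttn did not pass (13.1, 11.3 and 9.12 against 8.52, 7.40 and 12.1 FPKM), and the calcium pumps Atp2a1 and Atp2a2 fell by 0.19 and 0.32. The call for Ttn was gained without MLX WT replicate 3 or without NT shRNA replicate 3, at 0.34 and 0.39, and with length and GC trends removed, at 0.48.

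**Figure D3:**
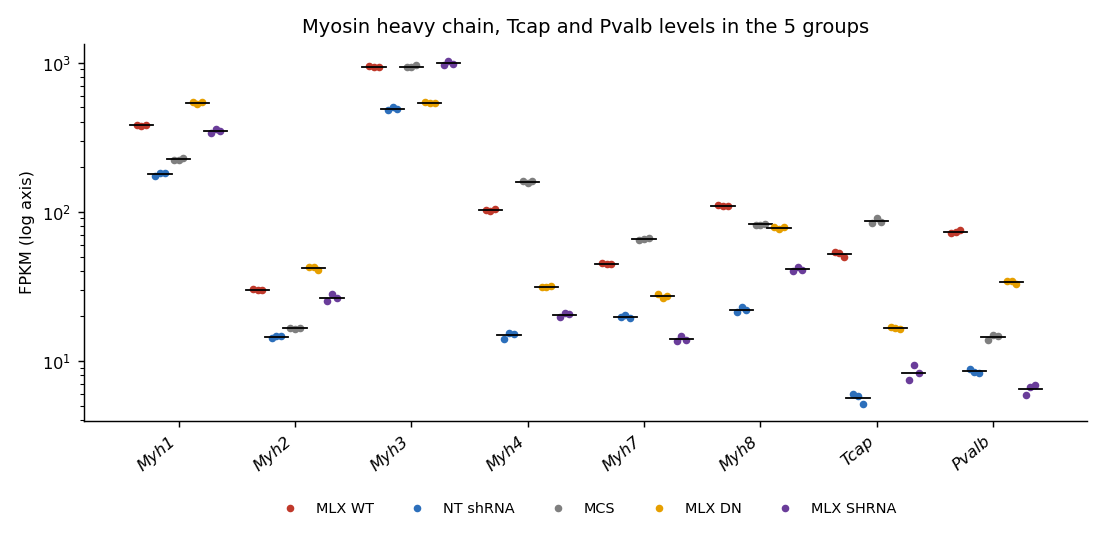
FPKM on a log axis for 6 myosin heavy chain genes, Tcap and Pvalb in every library of the 5 groups, with lines at the group means. MLX WT lies above NT shRNA for all 8, and above MCS for Myh1, Myh2, Myh8 and Pvalb but below it for Myh4, Myh7 and Tcap.

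Of 23 tested myogenic regulators 7 were called higher and 13 lower, with a median of -0.11. These shares, 30.4% and 56.5%, were near the 25.7% and 44.3% of all tested genes, and after median centring 8 were higher and 10 lower. Mef2c, a factor that acts late in differentiation, was at 24.998, 24.97 and 25.4 FPKM against 5.89, 5.80 and 6.22 and rose by 1.77 (SE 0.0344, limma adjusted p = 1.45e-15). Myf5, which marks committed myoblasts, was at 12.9, 12.9 and 12.8 against 3.64, 3.76 and 3.88 FPKM and rose by 1.37. For both MCS was near MLX WT (21.98 and 11.5 FPKM), and the low group was NT shRNA. Myod1 (-0.24) and Myog (-0.13) fell by small amounts against NT shRNA and were above MCS by 0.38 and 0.43. The inhibitors of differentiation Id2 (-0.80), Hes1 (-0.64) and Hey1 (-0.49) fell. Hes1, a target of Notch, was the one of these with a similar difference from MCS (-0.63). Hes6, which favours differentiation, rose by 0.56 against NT shRNA but was below MCS, with a difference of -0.20. The call for Pax7, -0.11, did not pass without NT shRNA replicate 2 (-0.10, adjusted p = 0.0504).

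Genes of myoblast fusion were mostly lower: 13 of 18 tested were called lower and 3 higher, with a median of -0.22. These shares were 72.2% and 16.7%, against 44.3% and 25.7% of all tested genes. Without MLX WT replicate 3 or without NT shRNA replicate 2, 1 was higher. Tmem8c, which encodes the fusion protein myomaker, was at 353, 348 and 358 FPKM against 407, 414 and 405 and fell by 0.21. Adam12, a metalloprotease of regenerating muscle, fell by 0.95 (10.01 ± 0.184 against 21.2 ± 0.397 FPKM). Jam3 fell by 0.48, Myof, the membrane repair protein myoferlin, by 0.46, and Cdh15, the muscle cadherin, by 0.32. MCS was the highest of the 3 groups for Tmem8c (454 FPKM) and Jam3 (21.6 FPKM).

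Matrix genes were the list with the largest median fall. Collagens, fibronectin, tenascins and small proteoglycans form the matrix that myoblasts and their neighbours deposit. Of 42 tested members of 46, 32 were called lower and 9 higher, with a median of -0.51; 9 were at least 2-fold lower and 3 at least 2-fold higher. Against MCS 34 were lower and 6 higher with a median of -0.46, so this list was lower with MLX WT than in either control. Fn1, fibronectin, was at 517, 504 and 529 FPKM against 1014, 1079.6 and 1020.05 and 889.95, 899 and 934. The log2 difference was -1.004 from NT shRNA and -0.81 from MCS. Tnc, tenascin C, was at 193, 191 and 194 FPKM against 429.8, 459.9 and 442 and fell by 1.19. Dcn, the proteoglycan decorin, was at 6.55 ± 0.0710 against 17.02 ± 0.384 FPKM and fell by 1.15. The fibrillar collagen gene Col1a1 was at 148 ± 1.04 against 206 ± 9.36 FPKM, a fall of 0.46, with MCS far higher at 443 ± 4.68. Col3a1 fell by 0.18 and Col4a1, of basement membranes, by 0.76. The exceptions included Thbs2, thrombospondin 2, which was at 151, 148 and 154 FPKM against 51.5, 53.5 and 51.7 and rose by 1.496, and was above MCS by 0.95. Col6a3 and Col18a1 rose by 0.93 and 1.01 but were below MCS. The summed level of the 11 fibroblast markers was 1114 to 1132 FPKM with MLX WT, 1301 to 1373 with NT shRNA and 1495 to 1519.9 with MCS, and of its genes Twist1 was at 0 and Thy1 under 0.1 FPKM in all 6 libraries. Other members were expressed: beside Dcn and the collagens, mean FPKM with MLX WT against NT shRNA was 28.5 and 40.4 for Pdgfrb, 64.7 and 69.6 for Ly6a, 2.87 and 2.06 for Pdgfra and 0.0257 and 0.974 for Lum. The part of fibroblast-like cells in these differences was not tested.

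Matrix proteases and their inhibitors were lower for 12 and higher for 5 of 23 tested (52.2% and 21.7%, near the 44.3% and 25.7% of all tested genes), with a median of -0.09. Mmp2, a gelatinase, fell by 1.37 (66.9 ± 1.34 against 177 ± 5.89 FPKM), and lies in the chromosome 8 segment. Serpine2 fell by 1.35 and Timp1 by 0.61. Mmp19 rose by 0.68 but shares 22.8% of its exon bases with a gene on the opposite strand. Of 29 tested genes of the SRF, TGF-beta and smooth muscle actin list, 19 were lower and 6 higher, with a median of -0.22. The shares were 65.5% and 20.7%, against 44.3% and 25.7% of all tested genes. Tagln, an actin-binding protein of smooth muscle and a target of SRF, was at 151, 149.99 and 156 FPKM against 284, 285 and 278 and fell by 0.88. Ankrd1, a stretch-responsive muscle protein and YAP target, went the other way, at 1082, 1062 and 1119 FPKM against 565, 554 and 561. It rose by 0.96 and was 1.23 above MCS. Acta2 was 0.14 higher as deposited and turned to -0.07 after quantile normalization. The summed smooth muscle markers were 2422 to 2452 FPKM with MLX WT and 2293 to 2391 with NT shRNA, with Myh11 under 0.1 FPKM in all 6 libraries.

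Secreted muscle factors went both ways, with 18 of 44 tested called higher and 21 lower. That was 40.9% and 47.7%, against 25.7% and 44.3% of all tested genes. Of the 44, 3 reached the level for testing only through MLX WT, and 2 of these were higher. Nov, a matricellular protein of the family of Ctgf, was at 7.81, 7.62 and 8.13 FPKM against 0.543, 0.506 and 0.602 with NT shRNA and 1.24, 1.15 and 1.03 with MCS. It was low in both controls and rose by 1.95 (SE 0.0315, limma adjusted p = 1.68e-16), opposite to Ctgf. Sepp1, the selenium carrier selenoprotein P, rose by 1.66 (36.002 ± 0.254 against 10.03 ± 0.481 FPKM), and MCS was at 27.5 ± 0.904. Angptl4, a secreted inhibitor of lipoprotein lipase, fell by 0.84 while Lpl itself rose. Angptl4 was at 26.98 ± 0.187 FPKM with MLX WT, 49.97 ± 1.65 with NT shRNA and 19.8 ± 0.527 with MCS, so MLX WT was above MCS. Il6 was at 0.513, 0.590 and 0.606 FPKM against 2.57, 2.70 and 2.85 and Cxcl12 at 0.505, 0.615 and 0.514 against 2.80, 2.61 and 2.59; these cytokine genes fell by 0.87 and 0.88. Igf1 did not pass (-0.06) and Igf2 rose by 0.18.

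Glycolytic enzymes were higher with MLX WT in most cases. Of 25 tested members of the glycolysis and lactate transport list 20 were called higher and 4 lower, with a median of 0.29, and against MCS 15 were higher and 6 lower with a median of 0.27. The level for testing was reached only through MLX WT by 1 member, which was among those higher than NT shRNA. Of the other 24, 19 were higher. Pgam2, the muscle phosphoglycerate mutase, was at 76.8, 76.9 and 76.1 FPKM against 28.1, 29.7 and 28.4 and rose by 1.36 (SE 0.0384, limma adjusted p = 1.23e-13). MCS was similar to MLX WT, at 82.9 ± 1.97 FPKM. Aldoa, the muscle aldolase, was at 1465, 1438 and 1459 FPKM against 977, 993 and 975 and rose by 0.57, and was 0.27 above MCS. The phosphofructokinase genes divided: Pfkl (0.52) and Pfkm (0.44) rose and Pfkp (-0.50) fell, with 17.4% of the exon bases of Pfkp shared with Pitrm1 on the opposite strand. Ldha, lactate dehydrogenase A, rose by 0.30 as deposited and by 0.05 after quantile normalization, where it did not pass. Slc2a1, the basal glucose transporter, rose by 0.17, and Slc16a3, the lactate exporter, was at 5.34, 4.79 and 5.06 FPKM against 12.2, 13.3 and 11.4 and fell by 1.01. Slc2a4, the insulin-responsive transporter, stayed under the level for testing with 0.859 ± 0.0509 against 0.366 ± 0.0635 FPKM.

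Hypoxia-inducible genes outside glycolysis gave different counts against each control. Of 26 tested 13 were higher and 7 lower than NT shRNA, with a median of 0.07, but 22 were higher and 1 lower than MCS, with a median of 0.42. Ddit4 (0.64), Bnip3l (0.60) and Plod2 (0.46) rose against NT shRNA. Stc2 (-0.75), Car12 (-0.60) and Vegfa (-0.15) fell against NT shRNA while all were above MCS. Pdk1, the kinase that closes pyruvate dehydrogenase, was at 12.2 ± 0.388 and 11.7 ± 0.249 FPKM against 4.63 ± 0.382 in MCS. It did not pass against NT shRNA as deposited, and was called at 0.11 to 0.15 after median centring, quantile normalization or removal of length and GC trends.

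Cholesterol synthesis genes were lower for 16 and higher for 6 of 23 tested, with a median of -0.18. That was 69.6% and 26.1%, against 44.3% and 25.7% of all tested genes. Sc4mol and Cyp51, which remove methyl groups from the sterol ring, fell by 0.45 and 0.36, whereas Dhcr7, of the late steps, rose by 0.43.

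Mitochondrial genes were somewhat higher. Of 39 oxidative phosphorylation genes 28 were called higher and 2 lower, with a median of 0.15, whereas against MCS 10 were higher and 14 lower. The largest differences were in the muscle forms of cytochrome oxidase subunits. Cox6a2 was at 113, 117 and 119 FPKM against 63.9, 64.3 and 61.6 and rose by 0.86. Cox7a1 rose by 0.81 and Cox8b by 0.66, and all 3 were above MCS, by 0.40, 0.72 and 0.84. Of 33 genes of the citric acid cycle and fatty acid oxidation 19 were higher and 7 lower, among them Cpt1a, the gate of fatty acid import, at 15.4 ± 0.504 against 9.11 ± 0.138 FPKM (0.64). Cytosolic ribosomal protein genes were higher for 42 and lower for 2 of 48 tested, with a median of 0.23, and against MCS 5 were higher and 28 lower. After quantile normalization only 20 were higher and 7 lower, with a median of 0.04. Rpl26 (0.81) and Rpl38 (0.69) had the largest rises among those named and Rplp0 fell by 0.14. Rplp0 lies on chromosome 5, where the median difference of all tested genes was -0.25. These lists hold short transcripts: 34 of the 48 ribosomal and 17 of the 39 oxidative phosphorylation genes were in the shortest 10% of transcripts. Over all genes the median difference ran from 0.096 in the shortest 10% to -0.16 in the longest, against -0.00 and -0.07 for MLX WT minus MCS. With length and GC trends removed 33 ribosomal genes were higher and 3 lower, and 22 oxidative phosphorylation genes were higher and 3 lower.

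Cell cycle genes divided by phase. DNA replication genes were lower for 29 and higher for 2 of 43 tested, with a median of -0.18, and against MCS 38 were lower and 3 higher. Against NT shRNA that was 67.4% lower and 4.65% higher, beside 44.3% and 25.7% of all tested genes. Pole2 fell by 0.60 (4.16 ± 0.0922 against 7.35 ± 0.0552 FPKM), E2f1 by 0.40, Mcm6, part of the replicative helicase, by 0.26 and Pcna, the sliding clamp, by 0.15. E2f2 fell by 0.43 against NT shRNA but was above MCS by 0.88. Mitosis genes went the other way against NT shRNA, with 24 higher and 3 lower of 38 and a median of 0.11, and were lower for 29 and higher for 4 against MCS. Their shares against NT shRNA were 63.2% higher and 7.89% lower. Aurka, a spindle kinase, was at 21.3, 20.5 and 22.7 FPKM against 14.5, 14.1 and 12.6 and rose by 0.58. Ccnb1 rose by 0.40 and Cdk1 by 0.27. Among the D cyclins, Ccnd1 rose by 0.67 while Ccnd2 and Ccnd3 fell by 0.44 and 0.30. The inhibitor Cdkn1c rose by 0.73 and Cdkn1a, which halts the cycle of differentiating myoblasts, did not pass at 612 ± 8.18 and 604 ± 6.61 FPKM. Ccnd1 and Ccnd3 share 21.9% and 14.8% of their exon bases with genes on the opposite strand.

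Of the 35 tested genes of the ER stress and ATF4 response, 18 were called both lower than NT shRNA and higher than MCS, or 51.4% against 9.31% of all tested genes. In all, 21 were lower and 8 higher than NT shRNA, with a median of -0.13, and 29 were higher and 5 lower than MCS, with a median of 0.35. After median centring 17 were lower and 12 higher than NT shRNA. Hspa5, the chaperone BiP, was at 485, 482 and 494 FPKM with MLX WT, 594, 599 and 588 with NT shRNA and 323, 319 and 316 with MCS. No values of the 3 groups overlapped: Hspa5 fell by 0.29 against NT shRNA and was 0.61 above MCS. Pdia4 (-0.50), Wars (-0.49), Atf6 (-0.43) and Hsp90b1 (-0.39) fell too and were above MCS; Hsp90b1 shares 14.7% of its exon bases with a gene on the opposite strand. Atf4 itself did not pass (-0.00), and Ddit3, the death-promoting factor CHOP, was at 17.1 ± 0.675 against 18.8 ± 0.335 FPKM with an adjusted p of 0.041. The call for Ddit3 was lost without MLX WT replicate 1 or 2 and without any one of the NT shRNA replicates, with differences of -0.13 to -0.10.

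Immediate early genes, which respond within minutes to serum and stress, were lower for 10 and higher for 4 of 18 (55.6% and 22.2%, near the 44.3% and 25.7% of all tested genes). Egr2 fell by 0.74 and Fos by 0.47, and Egr1 by 0.26 with MCS higher than either group (99.8 ± 2.08 against 48.6 ± 1.43 and 58.8 ± 0.527 FPKM). Ier2 and Junb fell by 0.79 and 0.58 and lie in the chromosome 8 segment. Fosl1 rose by 1.02, with 62.4% of its exon bases shared with Ccdc85b on the opposite strand. Of 25 antioxidant and glutathione genes 11 were higher and 8 lower (44% and 32%). The glutathione transferases Gstm2 and Gsta4 rose by 1.28 and 1.18, at 19.5 ± 0.433 against 6.85 ± 0.283 and 30.4 ± 1.53 against 12.2 ± 0.708 FPKM. The secreted enzyme Gpx3 fell by 0.93, beside Sod3. Of 31 lysosome and autophagy genes 13 were higher and 12 lower (41.9% and 38.7%). Map1lc3a, a form of the autophagosome protein LC3, rose by 0.78. Ulk1, the kinase that starts autophagy, fell by 0.38, while Tfeb did not pass.

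**Figure D4:**
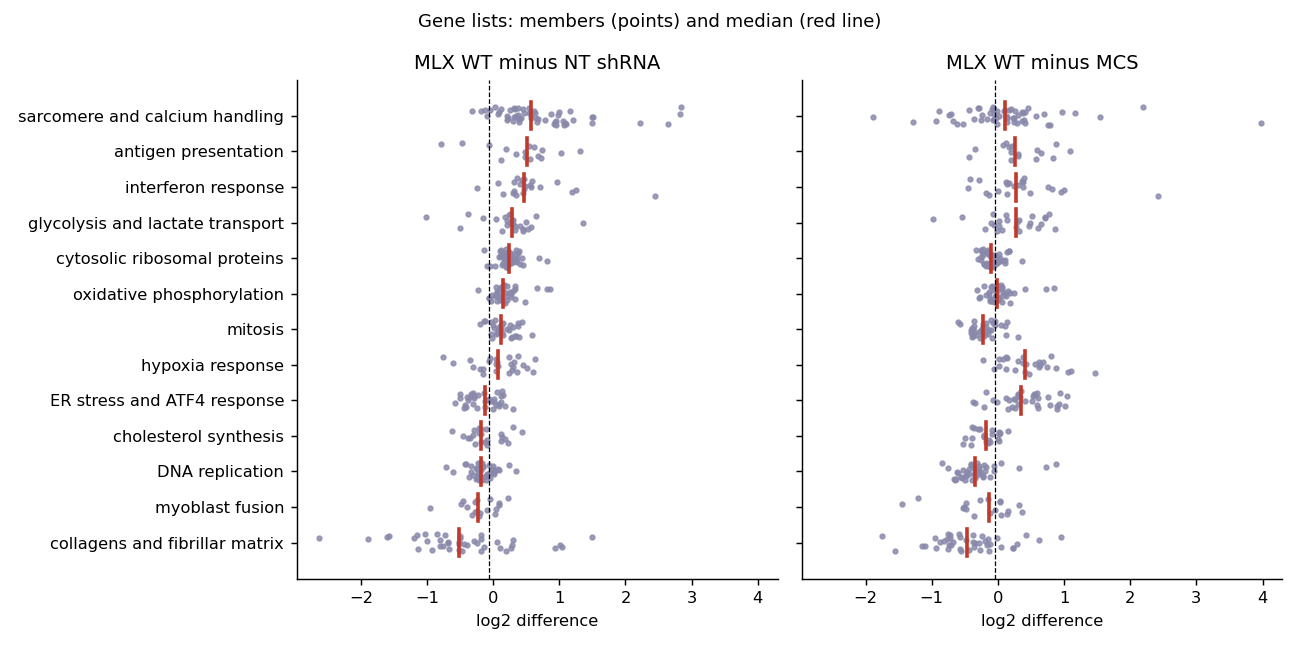
Log2 difference of each tested member of 13 gene lists, MLX WT minus NT shRNA on the left and MLX WT minus MCS on the right, with red lines at the list medians and a dashed line at the median of all genes. Sarcomere genes have a median of 0.57 on the left and 0.11 on the right, matrix genes of -0.51 and -0.46, and the ER stress list changes side, from -0.13 to 0.35. Both sides use the same MLX WT libraries.

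Defining markers of several other cell types were at or near 0. In all 6 libraries Adipoq, Plin1, Cidec and Lep of adipocytes, Sp7, Ibsp, Alpl, Acan and Col2a1 of bone and cartilage, and Pecam1, Cdh5 and Kdr of endothelium were under 0.1 FPKM. The leukocyte genes Ptprc and Emr1 were at 0. Other members of these lists were expressed, with means of 2.67 against 3.30 FPKM for Pparg, 6.37 against 7.87 for Cebpa, 5.98 against 6.12 for Runx2, 8.88 against 9.64 for Sox9, 4.22 against 4.03 for Cd14 and 1.65 against 1.01 for Cd68. The summed adipocyte list was 79.8 to 83.5 FPKM with MLX WT against 25.8 to 26.0 with NT shRNA, of which Lpl was the largest part. Beside the rise of the Ccl2, Ccl7 and interferon genes, the summed leukocyte list was 5.95 to 7.25 against 5.11 to 5.56 FPKM. Beside the osteocalcin copies, the bone and cartilage list was 16.7 to 16.8 against 17.4 to 18.6 FPKM. Of the genes tested, 1 of 7 fibroblast, 2 of 4 adipocyte, 2 of 6 smooth muscle, 0 of 3 bone and cartilage, 1 of 3 leukocyte and 1 of 2 neural markers were called higher. Called lower were 5, 2, 3, 2, 0 and 1 in the same order, and no endothelial marker was tested. Over all tested genes 25.7% were called higher and 44.3% lower. The part of other cell types in the results was not tested. The summed neural list was 12.1 to 12.8 against 18.1 to 18.7 FPKM.

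The differences were also laid out along the chromosomes in the gene order of the GRCm38 annotation, with no coordinates since the submitters' processing notes name build mm9. Chromosome 5 stood lowest: of 748 tested genes 590 (78.9%) were called lower, against 44.3% of all tested genes, with a median of -0.25. The median was between -0.27 and -0.22 in each of 12 stretches of equal gene number, and -0.24, -0.26 and -0.24 in the separate MLX WT libraries against the NT shRNA mean. The lower level therefore ran along the whole chromosome and was present in every library. For chromosome 5 the median was 0.12 for NT shRNA minus MCS and -0.11 for MLX WT minus MCS. Chromosome 12 (-0.19) and chromosome 1 (-0.17) were also low. Chromosome 15 was high, with a median of 0.12 and 277 of 500 genes (55.4%) called higher, against 25.7% of all tested genes. Mlxip, Mxd4, Atp2a2, Cyp51 and Ulk1, with differences of -0.38 to -0.28, lie on chromosome 5, as do Cmklr1 and Sod3. Il6 (-0.87), Rplp0 (-0.14) and Spp1, which did not pass, lie there too. So do Myl2 (1.49) and Acacb (0.096), which were higher with MLX WT. On chromosome 1 lie Myog (-0.13), which fell, and Myl1 (1.09) and Hes6 (0.56), which rose. Max (-0.11) and Id2 (-0.80) lie on chromosome 12. What share of their differences is that of the chromosome was not tested. Copy number was not measured. A segment of chromosome 8 from Arhgap10 to Rrad was also examined, with its ends set beforehand and earlier results of these data known. In it 134 of 152 tested genes (88.2%) were lower and 7 higher. The share lower was 44.0% in the rest of the chromosome and 44.3% over all tested genes. The median was -0.52 against -0.05 in the other 496 genes of the chromosome, a contrast that depends on where the ends were set. The median of the segment was 0.52 for MLX WT minus MCS and 1.02 for NT shRNA minus MCS. Rnf150, Calr, Dhps, Mir24-2, Mmp2, Orc6, Rbl2, Ier2 and Junb lie in it, so their differences stand beside those of their neighbours; what share of each is that of the segment was not tested.

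**Figure D5:**
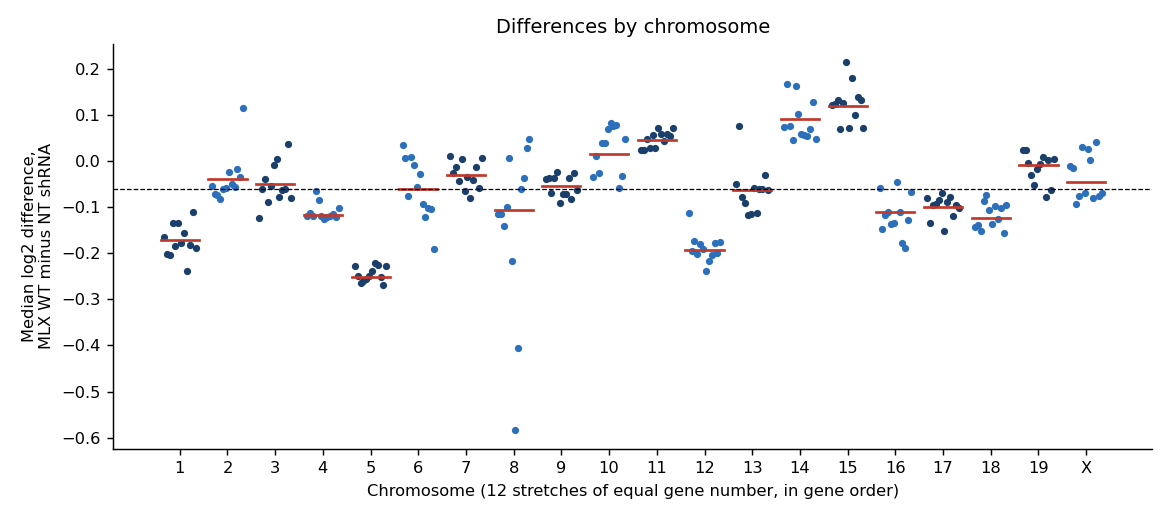
Median log2 difference, MLX WT minus NT shRNA, in 12 stretches of equal gene number on each chromosome, in gene order, with red lines at the chromosome medians and a dashed line at the median of all genes. All 12 stretches of chromosome 5 lie between -0.27 and -0.22, whereas on chromosome 8 the stretches inside the segment from Arhgap10 to Rrad fall to -0.58.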

How the data were processed

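The series holds messenger RNA profiles of C2C12 cells, 15 libraries in 5 labelled groups of 3. Per the labels' protocols, poly(A) RNA was used with a stranded library kit. CASAVA, TopHat2, STAR and the mouse build mm9 are named in the submitters' processing notes, with no role or version. Strand use in counting was not given in the sources used here, so genes that share exon bases with a gene of the opposite strand are marked as uncertain. The deposited values are log2 FPKM, in 1 table made by the authors. The minimum was exactly 1 in each library, and the values were read as log2(FPKM + 2). FPKM times transcript length then summed to 0.952 to 0.980 M per library.

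Genes that reached 1 FPKM in 3 or more of 15 libraries were tested on the deposited log2 values, using limma 3.58.1 under R 4.3.3. The fit had 1 mean per group over all 15 libraries, a trend of the variance over expression, two-sided tests, Benjamini-Hochberg adjustment over all tested genes and a threshold of 0.05. Differences on the log2(FPKM + 2) scale understate the change of genes with low values. Depth was estimated from the steps of low FPKM values over 16987 genes with 1 transcript length; the share of low values that came within 0.05 of whole fragments was 68.9% to 70.5%, against 30.2% to 31.8% at nearby depths. The fit was tested on simulated data.

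Named are the 15 largest differences in either direction among called genes whose values did not overlap and whose mean FPKM was at least 2 in the higher group; the 10 in each direction called the same way against both controls and the 5 in each direction called in opposite ways, ranked by the smaller difference; the MLX network and glucose-responsive lists; and in each list 2 to 4 of the 6 members of lowest p with the members that define it. Predicted genes were left out. Some genes that these rules name are not reported here. The comparison, the gene lists, these rules and the ends of the chromosome 8 segment were chosen with earlier results of these data known. Chromosome positions and transcript lengths came from GENCODE M21 (GRCm38) and promoters from RefSeq (GRCm38.p6). As alternatives, the offset, the filter, the scaling, the variance model and the libraries fitted were varied, a 1.5-fold limit and a replicate block were tried, and single libraries were left out; removal of length and GC trends was added after seeing the data.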

Additional observations from a re-analysis of the deposited data

How the results depend on the processing

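The numbers of genes called higher and lower stayed within 1.5 times of those reported under every alternative tried. The number of genes called and at least 2-fold apart, 165 as reported, was 253 with an offset of 1, 539 with an offset of 0.1 and 661 when 1.5-fold was enough, as smaller offsets and a lower limit admit more genes by construction. Leaving out each library in turn gave 2843 to 2987 genes higher, 4855 to 5080 lower and 164 to 170 at least 2-fold apart. Of 228 named genes, 194 were tested under all 16 alternatives, and 172 of these kept their direction and their side of the threshold in each; the other 34 fell under the mean FPKM of 5. Genes of small difference turned: with length and GC trends removed Mga was at 0.031, Acaca at 0.075, Pax7 at 0.0022, B2m at -0.0031 and Cdkn1a at -0.044; after quantile normalization Cdkn1a was at -0.20, Des at -0.17 and Acta2 at -0.067; after median centring Atf4 was at 0.0696. Acacb lost its call without MLX WT replicate 3 or NT shRNA replicate 1, and Mxi1, Acly and Psmc3ip gained one without 1 library. Median centring also gave a call to Mxd3 (0.11), Fgf21 (0.15) and Des (0.10). The median of the sarcomere list, 0.57 as reported, was below that of interferon genes with an offset of 0.1 (0.61 and 0.88) and below that of antigen presentation after quantile normalization (0.45 and 0.55).

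Among the gene lists, for example, the number called higher moved by over 1.5 times after median centring for fatty acid synthesis (7 to 11), myoblast fusion (3 to 5) and DNA replication (2 to 7), and after quantile normalization for ribosomal proteins (42 to 20). Median centring took the number called lower from 7 to 3 for the citric acid cycle, 12 to 7 for lysosome and autophagy, 8 to 4 for antioxidant enzymes and 4 to 2 for the sarcomere. Requiring a mean FPKM of at least 5 took the number higher from 20 to 4 for interferon, 18 to 11 for secreted factors, 8 to 5 for ER stress and 4 to 1 for immediate early genes.

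With the replicate number as a block, 3082 genes were higher, 5321 lower and 166 at least 2-fold apart. Same-numbered MLX WT and NT shRNA libraries did not deviate together (r = -0.0385, -0.0725 and -0.0402 across genes), so the numbers were not taken as a pairing.

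The table gives no counts, and depth limits genes near 0.0193 to 0.0379 FPKM.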
